A study of Phaseolus vulgaris with 36 samples.

Results

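The genes described here are P, V and J of common bean (Phaseolus vulgaris), 3 loci that take part in seed coat colour. They were chosen by identifier: Phvul.007G171333 for P, a bHLH transcription factor, Phvul.006G018800 for V, a flavonoid 3',5'-hydroxylase, and Phvul.010G130600 for J, a MYB transcription factor. All 3 were found among the 27433 genes of the deposited tables, each with 1 transcript, and all 3 had enough counts to be tested. The identifiers place P on chromosome 7, V on chromosome 6 and J on chromosome 10. The files give no coordinates, names or sequences, so gene positions and sequences are not given here.

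Pod RNA was sequenced in 4 accessions at 3 stages, with 3 libraries for each of the 12 groups and 36 in all. MIDAS is labelled domesticated and indehiscent, meaning that its mature pod stays closed. SXB405 and ICA Bunsi are labelled domesticated with middle dehiscence, and G12873 is labelled wild-type, with pods that open fully. R7 is the first pod, R8 the filling pod and R9 the mature pod, and all plants were untreated. The labels give neither the seed colour nor the alleles of P, V and J in any accession. They do not state whether the pods still held their seeds and whether replicate libraries were made from different plants. Each accession is 1 genotype, so accession and dehiscence cannot be told apart, and p-values measure only the spread between libraries, which may be technical.

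Seed coat colour in bean comes from flavonoids: flavonols, anthocyanins and proanthocyanidins (condensed tannins). In plants, genes for anthocyanins and proanthocyanidins are switched on by complexes of a MYB, a bHLH and a WD40 protein. P is the ground factor for colour, and plants without a working P have white seeds and flowers. V adds hydroxyl groups to the B ring of the flavonoid skeleton, the step that opens the branch to delphinidin-type blue, purple and black pigments. J acts late in the path to proanthocyanidins, and beans that lack its function darken little in storage.

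Levels are given as CPM, library-scaled counts after TMM normalization, a library size correction that allows for a few very abundant genes. This matters here because a co-varying set of 10 abundant genes took over 50% of the counts in 8 libraries. These are replicates 1 and 2 of G12873 R7, replicate 3 of ICA Bunsi R7, replicates 1 and 3 of ICA Bunsi R9, replicate 1 of SXB405 R9, replicate 2 of MIDAS R8 and replicate 1 of MIDAS R9. Total counts ranged from 2032506 to 15202576, and counts outside the set from 275179 to 14904905. A library with 0 counts of a gene could hold up to 3 counts, which is between 0.131 and 9.96 CPM by library and covers counting error only. In such bulk samples, fewer cells of a type and less RNA per cell cannot be told apart.

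**Figure D1:**
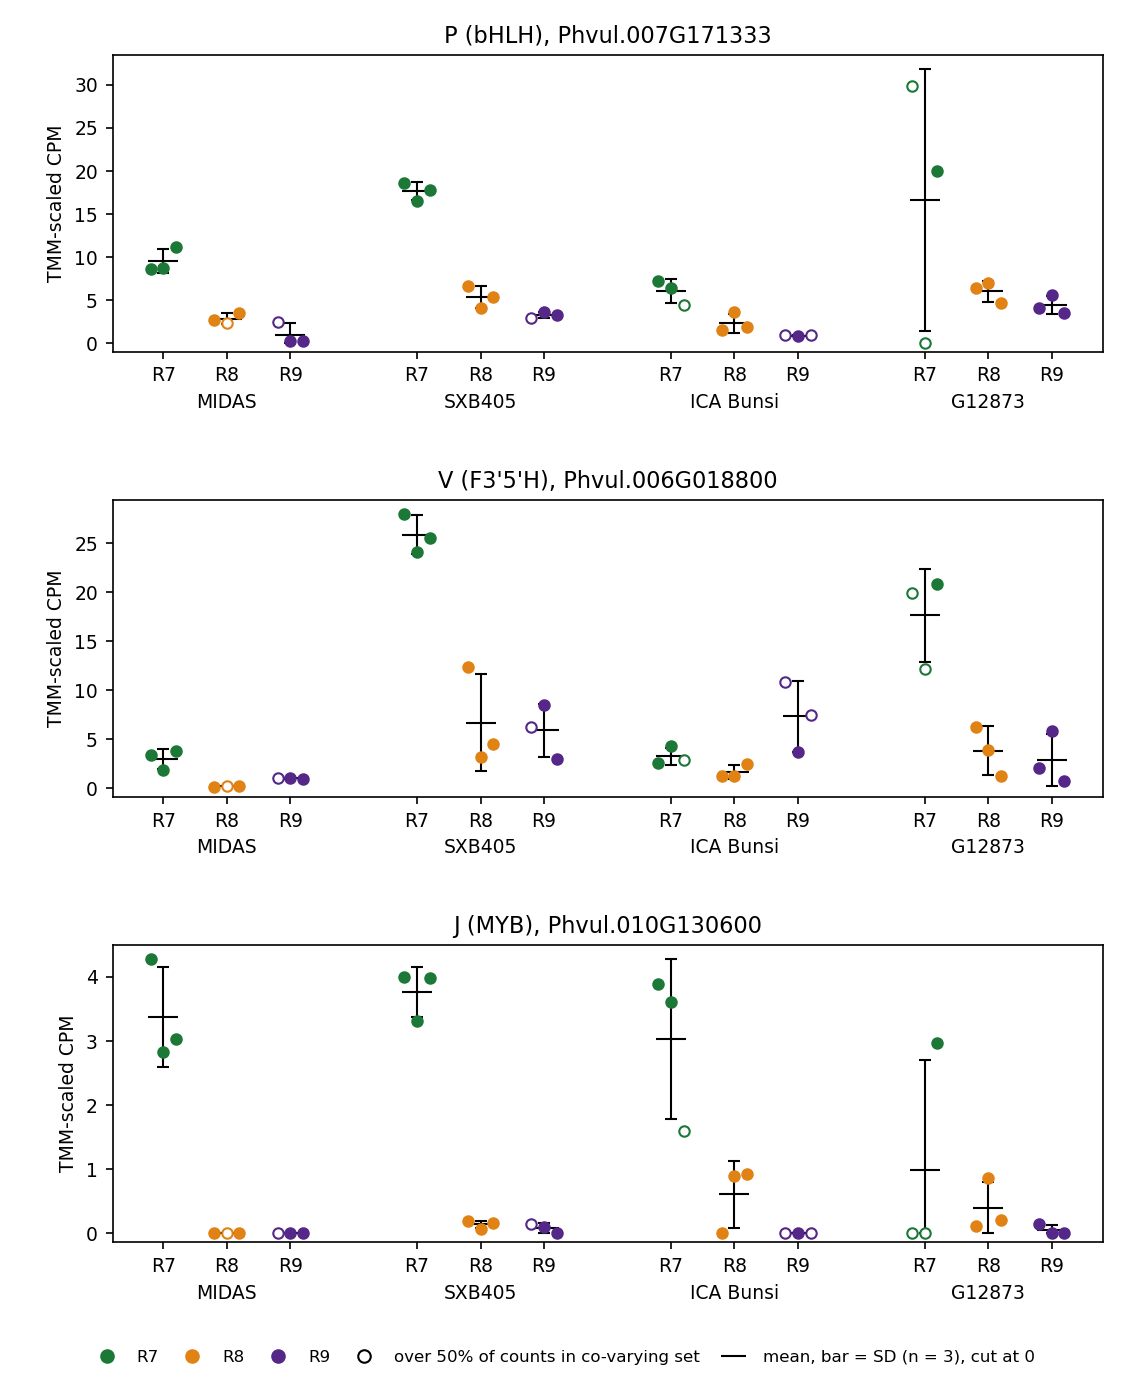
TMM-scaled CPM of P, V and J in every library, by accession and stage (R7, R8, R9 from left to right), each panel with its own linear axis. Dots are libraries, open dots the 8 libraries in which the abundant set took over 50%, and black bars the mean and SD of 3 libraries. V stood at 24.1 to 28.0 CPM in SXB405 R7 and at 0.184 to 0.240 CPM in MIDAS R8, and J had no counts in MIDAS R8, MIDAS R9 and ICA Bunsi R9.

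P had its highest mean in the first pods of each accession, and by edgeR it fell as the pods filled in all 4, with the calls in ICA Bunsi and G12873 lost under limma-voom. In MIDAS, P had 8.68, 8.75 and 11.1 CPM at R7, 2.70, 2.39 and 3.53 CPM at R8, and 2.51, 0.230 and 0.277 CPM at R9. All R7 libraries of MIDAS lay above all of its later ones, and R9 replicate 1, one of the 8 libraries, lay within the R8 range. The R9 values of MIDAS rest on 9 counts in all. In SXB405, P had 18.6, 16.6 and 17.8 CPM at R7, 6.66, 4.06 and 5.32 CPM at R8, and 2.91, 3.67 and 3.24 CPM at R9. The 3 stages of SXB405 did not overlap.

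In ICA Bunsi the values of P lay below those of SXB405 at each stage, with 7.17, 6.43 and 4.47 CPM at R7, 1.51, 3.59 and 1.93 CPM at R8, and 0.945, 0.796 and 0.936 CPM at R9. These stages did not overlap either, but the R9 values rest on 13 counts in all. In G12873, P had 29.9, 0 and 20.0 CPM at R7, 6.47, 6.96 and 4.67 CPM at R8, and 4.10, 5.55 and 3.57 CPM at R9. The R7 libraries of G12873 disagree, and their range covers those of R8 and R9: replicate 2 had no count, which allows up to 3.03 CPM, and the 29.9 CPM of replicate 1 come from 9 counts. Replicate 3, with 337 counts, is the one well-measured value of that group.

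With edgeR's quasi-likelihood test over all genes, the log2 fold change of P at R8 against R7 was -1.69 in MIDAS (SE 0.49, adjusted p = 0.0122) and -1.73 in SXB405 (SE 0.46, adjusted p = 0.00431). It was -1.38 in ICA Bunsi (SE 0.50, adjusted p = 0.0335) and -1.33 in G12873 (SE 0.51, adjusted p = 0.0452). In these comparisons 9.30%, 14.5%, 11.2% and 12.8% of all tested genes were called lower in MIDAS, SXB405, ICA Bunsi and G12873. Calls needed a change of at least 2-fold and, after Benjamini-Hochberg adjustment, a p under 0.05. A test of the step itself did not show it to differ between the accessions (adjusted p = 0.934, where 33.7% of genes passed). The 4 fitted values lie within 1 SE of each other.

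From R8 to R9, P fell further in MIDAS, by 2.34 on the log2 scale (SE 0.70, adjusted p = 0.00810, where 16.2% of genes were called lower). In SXB405, ICA Bunsi and G12873 this step was not called, with log2 fold changes of -0.70 (SE 0.49), -1.47 (SE 0.70) and -0.44 (SE 0.48). In G12873 edgeR called 0 genes at this step, with 1209 at an unadjusted p under 0.05, and 0 called by limma-voom and 7 by DESeq2. The step was not shown to differ between accessions by edgeR (adjusted p = 0.281). Without the 8 libraries the test of this step passed, but ICA Bunsi R9 then had replicate 2 alone. MIDAS R9 then had replicates 2 and 3, with 2 counts of P each. The log2 fold changes in that fit were -3.59 in MIDAS, -0.65 in SXB405, -1.55 in ICA Bunsi and -0.44 in G12873. Over the whole course, at R9 against R7, P fell in all 4 accessions. The log2 fold change was -4.04 in MIDAS (adjusted p = 1.08e-05), -2.42 in SXB405 (adjusted p = 0.000147), -2.86 in ICA Bunsi (adjusted p = 0.00122) and -1.78 in G12873 (adjusted p = 0.00829), where 21.8%, 18.6%, 17.2% and 15.7% of genes were called lower.

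Some of these calls of P rest on single libraries, and those at R8 in ICA Bunsi and G12873 are close to the threshold. In G12873, leaving out R7 replicate 3 gave -0.60 at R8 against R7 (adjusted p = 0.589) and -1.05 at R9 against R7 (adjusted p = 0.331). Its call at R8 was also lost without R7 replicate 1 or any one R8 replicate, with adjusted p between 0.0665 and 0.122, and in 11 fits that left out a library of another group. With limma-voom it was -0.97 (adjusted p = 0.198), and in the fit on those 6 samples the adjusted p was 0.278. At R9 against R7 the call in G12873 was also lost with limma-voom (-1.41, adjusted p = 0.0743). In ICA Bunsi the call at R8 was lost without R7 replicate 1 or 2 or R8 replicate 1 or 3 (adjusted p from 0.0825 to 0.147) and with limma-voom (adjusted p = 0.0561). In MIDAS the call at R8 was narrowly lost without R7 replicate 3, R8 replicate 1 or R8 replicate 2 (adjusted p = 0.0554, 0.0585 and 0.0511). The call of the fall from R8 to R9 was lost without R9 replicate 2 or 3 (adjusted p = 0.0945 and 0.0701). In the fit on only the MIDAS samples of R8 and R9, the fall to R9 was lost too (adjusted p = 0.0543). The fall in SXB405 kept its call without any one library.

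**Figure D2:**
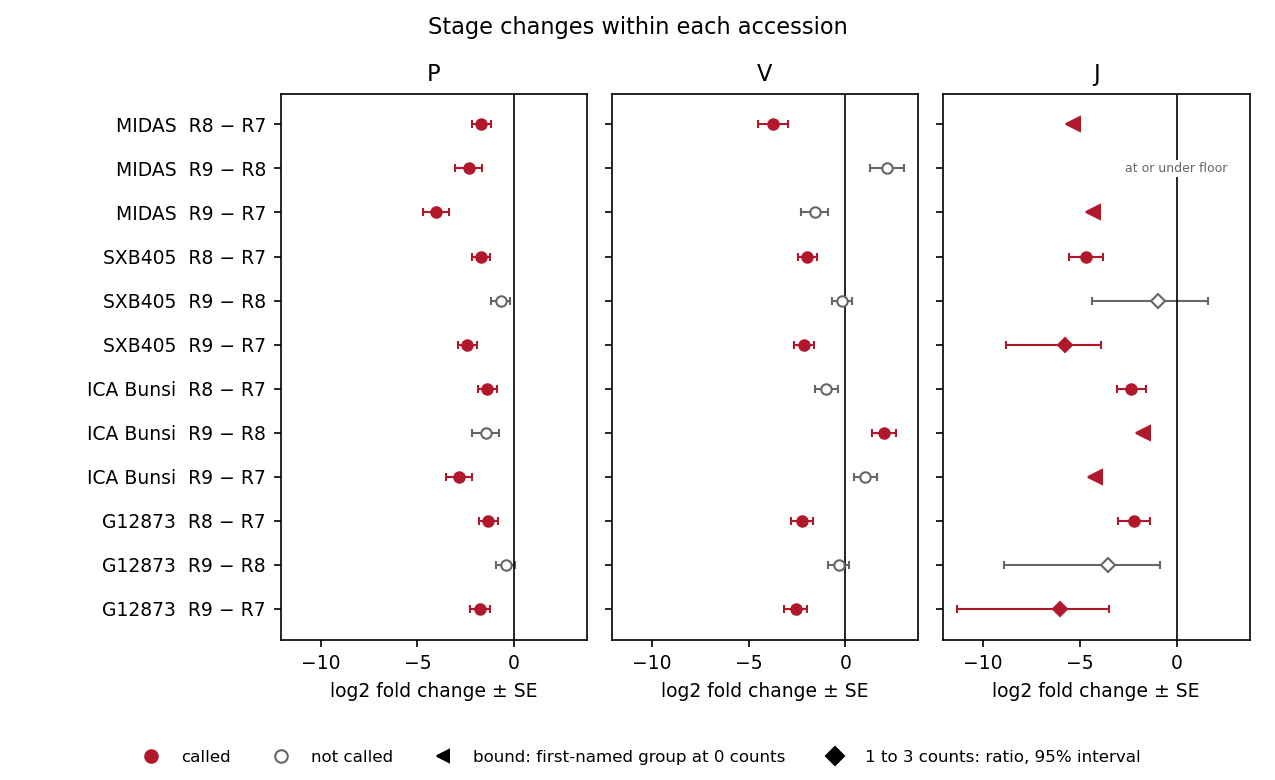
Log2 fold change of P, V and J between stages within each accession, the later stage over the earlier one, with SE bars from the edgeR fit. Filled red symbols passed the call rule, triangles are bounds where the later stage had 0 counts, and diamonds are pooled ratios with a 95% counting interval where a group had 1 to 3 counts. P and J lie at or below 0 at each step that could be measured. V lies above 0 at R9 against R8 in MIDAS (2.15, called by DESeq2 but not by edgeR or limma-voom) and ICA Bunsi (2.01, called by edgeR but not by limma-voom).

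V, the hydroxylase, had the most called differences between accessions of the 3 genes. In MIDAS, V had 3.42, 1.85 and 3.81 CPM at R7, 0.184, 0.239 and 0.240 CPM at R8, and 1.00, 1.03 and 0.971 CPM at R9. The 3 stages did not overlap, with the lowest level at R8, where the group had 8 counts of V in all. In SXB405, V had 28.0, 24.1 and 25.5 CPM at R7, 12.4, 3.22 and 4.47 CPM at R8, and 6.25, 8.46 and 3.001 CPM at R9. The R7 libraries of SXB405 lay above all others of the series, while its R8 and R9 libraries overlapped.

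ICA Bunsi had 2.62, 4.29 and 2.87 CPM of V at R7, 1.22, 1.22 and 2.52 CPM at R8, and 10.9, 3.66 and 7.49 CPM at R9. Here the R9 libraries overlapped with R7 and lay above R8. G12873 had 19.9, 12.1 and 20.9 CPM at R7, 6.24, 3.94 and 1.24 CPM at R8, and 2.05, 5.85 and 0.743 CPM at R9. The R7 libraries of G12873 lay above its later ones, and R8 and R9 overlapped over a wide range.

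V fell at R8 against R7 in MIDAS (log2 fold change -3.74, SE 0.76, adjusted p = 0.000753), SXB405 (-1.96, SE 0.51, adjusted p = 0.00310) and G12873 (-2.23, SE 0.57, adjusted p = 0.00339). In ICA Bunsi it was -0.98 (SE 0.58, adjusted p = 0.204) and not called. The fitted steps ranged widely, but the test of their difference did not pass (adjusted p = 0.126). At R9 against R7, V was still lower in SXB405 (-2.14, SE 0.52, adjusted p = 0.00111) and G12873 (-2.57, SE 0.58, adjusted p = 0.000972). By edgeR it was not called in MIDAS (-1.59, SE 0.68, adjusted p = 0.0519) or ICA Bunsi (1.03, SE 0.60, adjusted p = 0.178). DESeq2 called the value in MIDAS (-1.61, adjusted p = 0.0393), as did the fit on those 6 samples alone. Limma-voom (-1.43, adjusted p = 0.117) and RLE size factors (-1.60, adjusted p = 0.0535) did not. Without R7 replicate 3 of G12873, the fall to R8 in that accession was -1.95 (adjusted p = 0.0527).

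From R8 to R9, V rose in ICA Bunsi, with a log2 fold change of 2.01 (SE 0.61, adjusted p = 0.0190). In that comparison 7.32% of all tested genes were called higher. MIDAS had a like fitted value that edgeR did not call (2.15, SE 0.90, adjusted p = 0.0558). It was called by DESeq2 (2.26, adjusted p = 0.0232), with the replicate block (adjusted p = 0.0495) and when transcripts were tested. It was not called with limma-voom (2.07, adjusted p = 0.0825) or RLE size factors (2.20, adjusted p = 0.0545). The MIDAS groups had 8 counts of V at R8 and 18 at R9. In the same step SXB405 and G12873 had -0.18 (SE 0.51) and -0.34 (SE 0.55). The difference of this step between the accessions just passed (adjusted p = 0.0459, where 21.8% of genes passed), and with 1 library left out it passed in 10 of 36 fits, with the highest adjusted p, 0.131, without ICA Bunsi R9 replicate 1. In ICA Bunsi the set took over 50% of counts in R9 replicates 1 and 3, the libraries with 10.9 and 7.49 CPM on 23 and 8 counts. R9 replicate 2, with 46 counts, had 3.66 CPM, above the highest R8 library. Without the 8 libraries, with R9 replicate 2 alone and assumed to vary like the other groups, the log2 fold change was 1.14 (adjusted p = 0.446). The call was also lost without R8 replicate 1 or 2 or R9 replicate 1 or 3, with log2 fold changes from 1.45 to 1.90 and adjusted p from 0.0552 to 0.161, and with limma-voom (1.72, adjusted p = 0.0559).

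J, the MYB gene, was lower at R8 and R9 than at R7 in each accession by edgeR, and at R9 no group had more than 2 counts of it. In MIDAS, J had 4.28, 2.84 and 3.02 CPM at R7 and no count in any R8 or R9 library. In SXB405, J had 4.01, 3.31 and 3.98 CPM at R7, 0.190, 0.0700 and 0.154 CPM at R8, and 0.145, 0.102 and 0 CPM at R9, the last 2 groups on 5 and 2 counts. In both accessions each R7 library lay above each later one.

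In ICA Bunsi, J had 3.88, 3.61 and 1.60 CPM at R7, 0, 0.897 and 0.923 CPM at R8 and no count at R9. Its R7 and R8 libraries did not overlap. In G12873, J had 0, 0 and 2.97 CPM at R7, 0.116, 0.862 and 0.207 CPM at R8, and 0.146, 0 and 0 CPM at R9. The 0 counts in R7 replicates 1 and 2 of G12873 allow up to 9.96 and 3.03 CPM. In replicate 1 a level like that of any other accession at R7 could be missed. The limit of replicate 2 lies within the R7 ranges of MIDAS and ICA Bunsi but below each SXB405 R7 library. The R7 level of G12873 rests on replicate 3 with 50 counts. J had 0 counts in 15 of the 36 libraries, against 1 for P and 0 for V.

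J was at least 41.5-fold lower at R8 than at R7 in MIDAS (adjusted p = 0.00010426) and at least 20.0-fold lower at R9 than at R7 (adjusted p = 9.07e-05), with the floor of 3 counts taken over the group. In SXB405 the log2 fold change at R8 against R7 was -4.69 (SE 0.86, adjusted p = 0.000136). The ratio of R9 to R7 there was 0.0182, with a 95% exact counting interval from 0.00219 to 0.0664 (adjusted p = 5.94e-05). In ICA Bunsi, J fell by 2.33 on the log2 scale at R8 (SE 0.74, adjusted p = 0.0178) and was at least 18.3-fold lower at R9 than at R7 (adjusted p = 0.000463). That bound rests mostly on R9 replicate 2, whose 0 counts allow up to 0.239 CPM. The 0 counts of R9 replicates 1 and 3, among the 8 libraries, allow up to 1.42 and 2.81 CPM. In MIDAS and SXB405 the call of J at R8 held in all 47 alternative fits. Here and below, these include the main fit read with no minimum fold change, where no call can be lost. In ICA Bunsi it was lost without R7 replicate 1 or 2 or R8 replicate 1 (adjusted p = 0.0676, 0.0537 and 0.0782).

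In G12873 the log2 fold change of J at R8 against R7 was -2.17 (SE 0.83, adjusted p = 0.0475), and the ratio of R9 to R7 was 0.0153, with a counting interval from 0.000381 to 0.0894 (adjusted p = 0.00142). Both calls of J rest on R7 replicate 3. Without it no R7 library of that accession has a count of J, and the fitted log2 values were 5.15 (adjusted p = 0.506) and 2.12 (adjusted p = 0.850). Of 46 alternative fits, 24 kept the R8 call, which was also lost when R8 replicate 1 or 3 was dropped (adjusted p = 0.147 and 0.127) and with DESeq2 (adjusted p = 0.143).

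The fall of J from R7 to R8 differed between the accessions by edgeR (adjusted p = 0.0180, where 33.7% of genes passed). Without MIDAS R8 replicate 1 or 3 the adjusted p was 0.0510 and 0.0533, and the test did not pass with limma-voom or with transcripts. The fall was largest in MIDAS, where no count was left, and in SXB405. In ICA Bunsi and G12873, 22 and 17 counts remained at R8. From R8 to R9 only ICA Bunsi had a call, at least 3.32-fold lower at R9 (adjusted p = 0.0402, where 8.10% of genes were called lower), and it was lost without R8 replicate 2 or 3 or any one R9 replicate, with adjusted p from 0.0654 to 0.269. Other tools lost it too: limma-voom gave a log2 value of -1.42 (adjusted p = 0.357) and DESeq2 -3.26 (adjusted p = 0.0773), and the adjusted p was 0.0787 for transcripts, 0.0505 with the replicate block and 0.121 without the 8 libraries. The libraries of R8 and R9 overlapped at 0. In SXB405 and MIDAS, J was already at or near the floor at R8.

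Of the 12 stage comparisons run for each gene, P was called lower in 9, J in 9 and V in 5, and V was called higher in 1. A tested gene was called lower in 1.47 and higher in 1.30 of these comparisons on average. DESeq2 made 9 calls for P, 7 for J and 8 for V.

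Differences between accessions were then read at each stage, over 6 pairs and 3 stages, 18 comparisons a gene. V was called in 10 of them, P in 5 and J in 2, where a tested gene had 2.89 such calls on average. By edgeR P was thus above that average, but limma-voom called 3 for P, so its number depends on the tool. J was below the average by edgeR, but at R9 no accession had more than 2 counts of J, too few for a call at that stage. The number for J is therefore not read against the average. Of the 3, the count for P moved most: with 1 library left out it ran from 2, without ICA Bunsi R9 replicate 1, to 10, without G12873 R7 replicate 2, the library with no count of P. The count for J was 1 without G12873 R8 replicate 2. Whether pods with one stage label were equally far developed in the 4 accessions was not tested.

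For V, MIDAS was lower than SXB405 at every stage. The means were 3.03 ± 1.04 CPM in MIDAS and 25.9 ± 1.96 CPM in SXB405 at R7 (SD, n = 3), a log2 difference of -3.08 (SE 0.55, adjusted p = 0.000106). At R8 they were 0.221 ± 0.0318 CPM in MIDAS and 6.69 ± 4.96 CPM in SXB405, a log2 difference of -4.86 (SE 0.73, adjusted p = 6.99e-06). At R9 they were 1.00 ± 0.0313 CPM in MIDAS and 5.90 ± 2.74 CPM in SXB405, a log2 difference of -2.53 (SE 0.66, adjusted p = 0.00477). In these 3 comparisons 8.39%, 10% and 9.71% of all genes were called lower in MIDAS. The libraries of MIDAS and SXB405 did not overlap at any stage, and all 3 calls held in each of the 47 alternative fits.

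MIDAS was also lower than G12873 in V at R7 (log2 difference -2.55, SE 0.58, adjusted p = 0.00106, where 12.7% of genes were called lower) and R8 (-4.06, SE 0.75, adjusted p = 7.47e-05, where 13.2% were). At R9 the 2 accessions overlapped, and the log2 difference of -1.57 (SE 0.68, adjusted p = 0.0928) was not called. At R7 MIDAS had a mean of 3.03 ± 1.04 CPM, against 3.26 ± 0.901 CPM in ICA Bunsi, overlapping values whose log2 difference of -0.11 (SE 0.57) was not called. MIDAS was then lower at R8 (-2.87, SE 0.78, adjusted p = 0.00821) and R9 (-2.73, SE 0.71, adjusted p = 0.00647), where 8.16% and 7.22% of genes were called lower. The R8 call was lost without ICA Bunsi R8 replicate 3 or MIDAS R8 replicate 1 (adjusted p = 0.0602 and 0.0528). The R9 call was lost without ICA Bunsi R9 replicate 1 (adjusted p = 0.0554), and it was -1.86 with an adjusted p of 0.273 when the 8 libraries were dropped.

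ICA Bunsi and SXB405 carry the same dehiscence label but differed in V. SXB405 was higher than ICA Bunsi at R7, by 2.97 on the log2 scale (SE 0.55, adjusted p = 0.000914), and at R8, by 1.99 (SE 0.55, adjusted p = 0.0217), where 2.55% and 2.76% of all genes were called higher in SXB405. At R9 the log2 difference was -0.19 (SE 0.58, adjusted p = 0.892), and the libraries of both accessions overlapped. The R8 call was lost without SXB405 R8 replicate 1 (1.20, adjusted p = 0.142), the library with 12.4 CPM, and without ICA Bunsi R8 replicate 1 or 2 (adjusted p = 0.0867 and 0.113). ICA Bunsi was lower than G12873 in V at R7 (-2.44, SE 0.59, adjusted p = 0.00758, where 4.51% of genes were called lower). That call was lost without ICA Bunsi R7 replicate 1 (adjusted p = 0.0540). It was -2.62 with an adjusted p of 0.0893 when the 8 libraries were dropped, which leaves replicate 3 as the only G12873 R7 library. SXB405 and G12873 were not called apart in V at any stage, with log2 differences of 0.54 (SE 0.54), 0.80 (SE 0.52) and 0.96 (SE 0.54) at R7, R8 and R9.

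**Figure D3:**
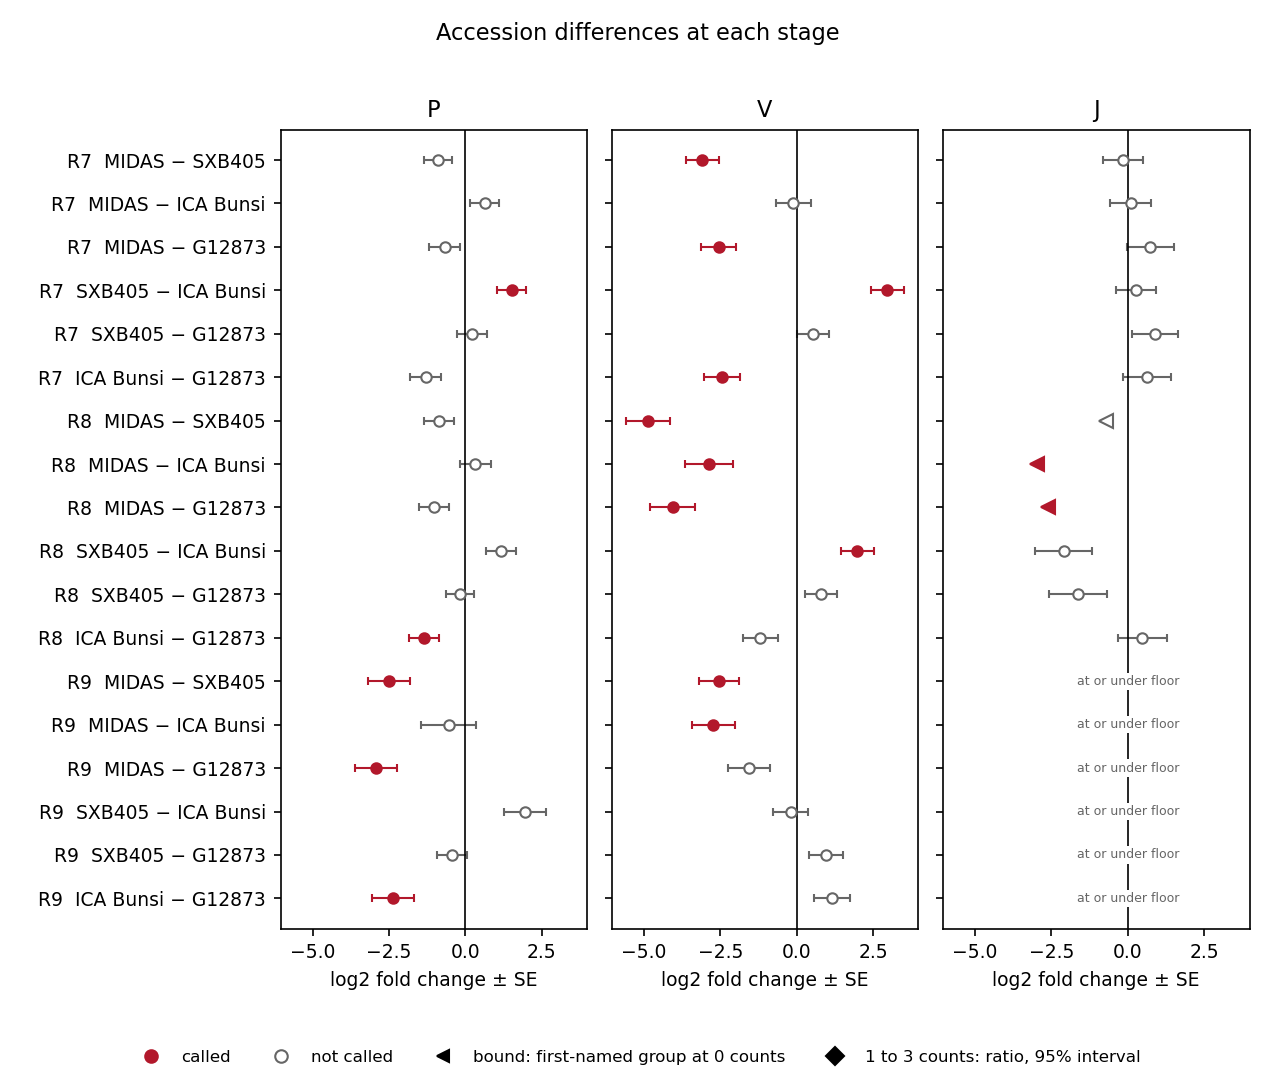
Log2 difference of P, V and J between accessions at each stage, the first-named accession over the second, with SE bars from the edgeR fit. Filled red symbols passed the call rule and triangles are bounds where the first-named accession had 0 counts. V has 10 called differences, 7 of them with MIDAS lower, while J has no called difference at R7 and is at or under the floor in every accession at R9.

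P had 1 called difference between accessions at R7, 1 at R8 and 3 at R9. Without the 8 libraries more were called, but that fit left G12873 R7 with replicate 3 alone and ICA Bunsi R9 with replicate 2 alone. The calls it added at R7 set MIDAS and ICA Bunsi against that single G12873 library (log2 differences -1.09 and -1.57). At R9 MIDAS had 1.01 ± 1.30 CPM, against 3.27 ± 0.381 CPM in SXB405 (log2 difference -2.50, SE 0.70, adjusted p = 0.00763) and 4.41 ± 1.03 CPM in G12873 (-2.94, SE 0.69, adjusted p = 0.00201), where 9.71% and 8.65% of genes were called lower in MIDAS. The MIDAS libraries lay below those of SXB405 and G12873, but they held 9 counts of P in all, 5 of them in replicate 1, one of the 8 libraries. The difference from SXB405 was lost without MIDAS R9 replicate 2 or 3 (adjusted p = 0.0871 and 0.0659). In fits on only the 6 samples compared, the differences from SXB405 and G12873 were both lost (adjusted p = 0.101 and 0.0670). ICA Bunsi was lower in P than G12873 at R8 (-1.36, SE 0.49, adjusted p = 0.0447) and at R9 (-2.38, SE 0.69, adjusted p = 0.0194), where 7.47% and 4.99% of genes were called lower. The R9 call was lost without G12873 R9 replicate 2 or ICA Bunsi R9 replicate 1 or 2 (adjusted p = 0.0671, 0.0590 and 0.117), and the R8 call in 22 of 47 alternative fits. With limma-voom the adjusted p was 0.0664 at R8 and 0.0951 at R9.

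At R7, P had a mean of 17.7 ± 1.03 CPM in the SXB405 libraries, against 6.02 ± 1.40 CPM in ICA Bunsi libraries. The log2 difference of 1.52 (SE 0.47) had an adjusted p of 0.0488 by edgeR, where 2.55% of genes were called higher. Its libraries did not overlap, but the call of P held in only 14 of 47 alternative fits. It was lost without any one of the 6 libraries compared, with log2 differences from 1.38 to 1.66 and adjusted p from 0.0838 to 0.210. MIDAS, with 9.52 ± 1.39 CPM, lay between them without a call to either.

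At R7 no difference in J between accessions was called. Mean CPM was 3.38 ± 0.783 in MIDAS, 3.77 ± 0.394 in SXB405 and 3.03 ± 1.25 in ICA Bunsi, and no pair was called, with log2 differences of -0.16 (SE 0.65) for MIDAS against SXB405 and 0.10 (SE 0.67) for MIDAS against ICA Bunsi. The 2.97 CPM of G12873 R7 replicate 3 lay within the range of these libraries. At R8, MIDAS with 0 counts was at least 7.83-fold lower than ICA Bunsi (adjusted p = 0.00577) and at least 6.10-fold lower than G12873 (adjusted p = 0.00686), where 8.16% and 13.2% of genes were called lower. The libraries of MIDAS and ICA Bunsi overlapped at 0, since ICA Bunsi R8 replicate 1 had no count of J either. The difference from G12873 was lost without G12873 R8 replicate 2 (adjusted p = 0.0946), which had 14 of the 17 counts. At R9 no accession had more than 2 counts of J, so no ratio is given.

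Set in order of the group means, the 3 genes had different rankings. For P, the SXB405, G12873 and MIDAS groups at R7 came first, and MIDAS R7 lay above the next group, G12873 R8, without overlap. Each other pair of neighbours in the order of P overlapped. For V, SXB405 R7 came first and overlapped no other group, and G12873 R7 came second and overlapped only SXB405 R8, by 1 library of each. The groups from ICA Bunsi R9 to ICA Bunsi R8 overlapped in steps. MIDAS R9 lay within the range of G12873 R9, and MIDAS R8, the last, overlapped no other group. For J, the R7 groups of SXB405, MIDAS, ICA Bunsi and G12873 came first, and every neighbouring pair in its order overlapped.

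To compare the genes with each other, levels must be scaled by length, as in the deposited TPM. In SXB405 R7, V had a mean of 23.9 ± 0.559 TPM, P 10.4 ± 0.158 TPM and J 6.49 ± 0.475 TPM (SD, n = 3), higher than the mean TPM of 80.0%, 62.3% and 53.1% of all genes. In MIDAS R7, V had 2.07 ± 0.762 TPM, P 4.31 ± 1.21 TPM and J 4.20 ± 0.202 TPM, higher than 40.2%, 51.2% and 50.7% of genes. V was thus the most abundant of the 3 in SXB405 first pods and the least abundant in MIDAS first pods.

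A ratio within a library does not depend on how that library is scaled or on the co-varying set. The ratio of V to P in TPM lay between 0.326 and 0.614 in the 3 MIDAS R7 libraries, 2.26 and 2.36 in SXB405 R7, and 0.567 and 1.02 in ICA Bunsi R7, and was 1.11 and 1.62 in the 2 G12873 R7 libraries with a count of P. The MIDAS and SXB405 ranges did not overlap. At R8 the ratio was 0.108 to 0.163 in MIDAS, 1.25 to 3.01 in SXB405, 0.551 to 2.08 in ICA Bunsi and 0.425 to 1.53 in G12873. At R8 the MIDAS libraries lay below every other one, while at R7 they overlapped with ICA Bunsi. The MIDAS ratios at R8 rest on 3, 1 and 4 counts of V in replicates 1, 2 and 3, and replicate 2 is one of the 8 libraries.

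At R9 the order of the ratio changed. ICA Bunsi had 18.6, 7.30 and 12.6, all above its R7 and R8 libraries, on 2, 10 and 1 counts of P. MIDAS had 0.638, 7.33 and 5.62, on 5, 2 and 2 counts of P, while SXB405 had 1.48 to 3.62 and G12873 0.329 to 1.70. The high ratios therefore rest on few counts of P. They are given as a description, without a test.

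**Figure D4:**
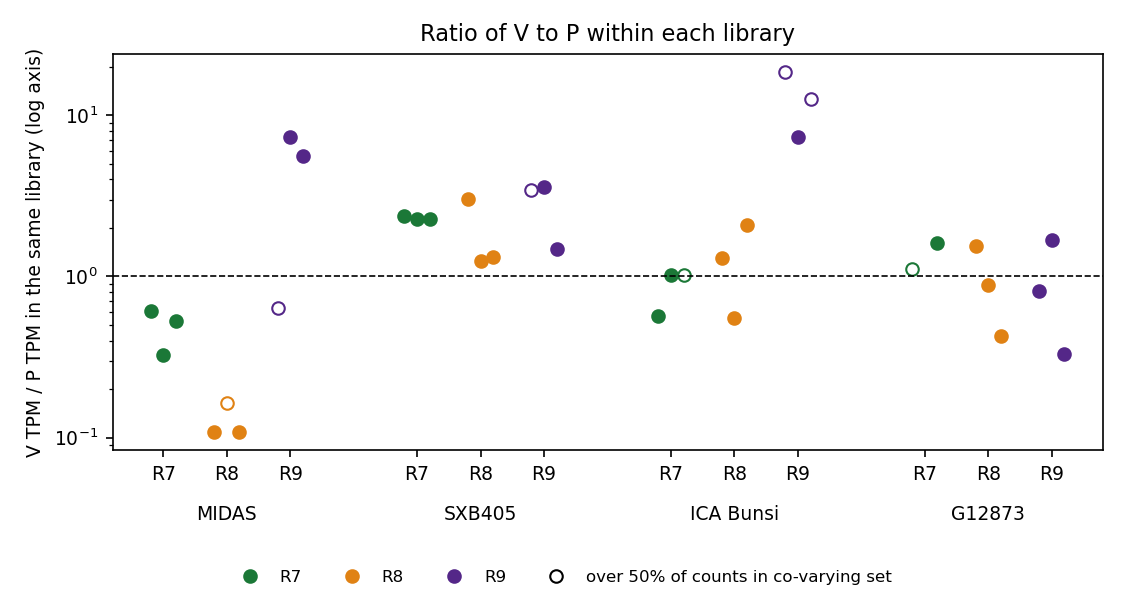
Ratio of V to P in deposited TPM within each library, by accession and stage, on a log axis with a dashed line at equal TPM. Open dots are the 8 libraries in which the abundant set took over 50%, and G12873 R7 replicate 2 is missing because it had no count of P. MIDAS lies between 0.108 and 0.163 at R8, below all other R8 libraries, on 8 counts of V in all. ICA Bunsi lies between 7.30 and 18.6 at R9, on 13 counts of P in all.

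The ratio of J to P in TPM at R7 was 0.772 to 1.41 in MIDAS, 0.585 to 0.657 in SXB405 and 1.02 to 1.58 in ICA Bunsi, and 0.427 in G12873 replicate 3. SXB405 lay below MIDAS and ICA Bunsi without overlap. By R8 the ratio in SXB405 was between 0.0501 and 0.0854, below every SXB405 library at R7.

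Across the 12 group means of log2 CPM, P and J had a Pearson correlation of 0.75, P and V 0.47, and V and J 0.40. Without the 8 libraries these were 0.76, 0.65 and 0.60. The 12 points share accessions and stages and describe only how alike the patterns were. Among 18846 genes compared, V ranked 4007 in likeness to P and J ranked 502, so neither was among the nearest patterns.

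The patterns most like J were those of Phvul.006G125400 (r = 0.97), Phvul.008G175600 (r = 0.96) and Phvul.009G097100 (r = 0.96), which had 0.94, 0.90 and 0.90 over the 36 libraries. All 3 had their highest mean at R7, between 4.82 CPM in SXB405 and 6.07 CPM in MIDAS, and a group mean of 0 at their lowest. For V the nearest were Phvul.002G218700, Phvul.002G256400 and Phvul.003G182200, with r = 0.87, 0.87 and 0.84 over group means and 0.79, 0.68 and 0.48 over libraries. Phvul.002G218700 had the wider range, from 0.123 to 127 CPM in group means, with its highest mean in SXB405 R7 as for V.

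For P the nearest were Phvul.L001832 (r = 0.96), Phvul.007G072200 (r = 0.95) and Phvul.006G151200 (r = 0.94). Over the 36 libraries these had r = 0.17, 0.61 and 0.56, so the likeness of Phvul.L001832 to P is one of group means and not of libraries. No names or functions come with these identifiers.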

How the data were processed

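The submitters' processing notes name kallisto, edgeR and limma, with no version. Build, annotation and strand use: not given in the sources used here. Each library has 1 deposited table with estimated counts, which the authors did not normalize, and TPM, scaled for length and library size by the authors. The estimated counts of P, V and J were whole numbers in all 36 libraries (within 1e-06).

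Estimated counts were summed per gene and rounded. Tests used edgeR 4.0.16 under R 4.3.3, with TMM factors, filterByExpr (minimum count 10, total 15), and a robust quasi-likelihood fit over 36 samples and 12 groups. It kept 20966 genes, and p-values were adjusted over all of them in each of 30 comparisons a gene. Standard errors come from the F statistic. Log2 CPM used a prior count of 2. Likeness was a Pearson correlation over group means among genes of at least 1 CPM, of which the 3 highest are named. Counting intervals (95%) are exact binomial ones. Alternatives were DESeq2 1.42.0, limma-voom (limma 3.58.1), and those named under the dependence on processing. Plots used matplotlib 3.10.9 in Python 3.11.15.

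The members, gene lists and tests were chosen with earlier results of these data known. Of 27433 identifiers, 0 matched the reference table of 34165 genes, so flavonoid pathway genes and markers of seed or pod wall were not analysed here. Replicate numbers were checked for pairing: deviations of same-numbered libraries had a median correlation of -0.01, and of others -0.00036, so no pairing was assumed.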

Additional observations from a re-analysis of the deposited data

Results flagged for a closer look

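The step of J from R7 to R8 differed between the 4 accessions by a test of the difference itself (adjusted p = 0.0180, edgeR). The change was at least 41.5-fold lower in MIDAS, and the log2 fold change was -4.69 in SXB405, -2.33 in ICA Bunsi and -2.17 in G12873. The value in G12873 rests on R7 replicate 3. The test passed for 33.7% of all genes. For J it did not pass with limma-voom or with transcripts, and it passed in 34 of 36 fits with 1 library left out.

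By the same kind of test, the change of V between R8 and R9 was unequal among the 4 accessions (adjusted p = 0.0459), with log2 fold changes of 2.15 in MIDAS, -0.18 in SXB405, 2.01 in ICA Bunsi and -0.34 in G12873. In ICA Bunsi the 2 higher R9 libraries are among the 8 dominated by the abundant set. The adjusted p of the difference was 0.345 without the 8 libraries and 0.131 without ICA Bunsi R9 replicate 1 alone.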

How the results depend on the processing

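Of 41 calls for P, V and J, 19 held in every alternative fit: 10 of 16 for V, 6 of 11 for J and 3 of 14 for P. Among the alternatives is the main fit read with no minimum fold change, where no call can be lost. Only J in G12873 changed sign, without R7 replicate 3: leaving out 1 library gave log2 values from -3.53 to 5.15 at R8 and from -7.39 to 2.12 at R9 against R7. Accession comparisons called for P, 5 of 18, were 3 with limma-voom, 3 with the replicate block and 1 when transcripts were tested. More were called without the 8 libraries, where G12873 R7 had replicate 3 alone and ICA Bunsi R9 replicate 2 alone. Stage comparisons called for P, 9 of 12, were 3 with transcripts. P has 1 transcript, so its own counts were the same in that fit. In fits on only the 6 samples compared, J passed the filter in 5 stage comparisons, all called, and in 7 accession comparisons. In those 7, edgeR called 0, with 0 at an unadjusted p under 0.05, and limma-voom over all libraries called 0. The called differences of J between accessions, both at R8, were not among the 7. Limma-voom over all libraries called both, MIDAS against ICA Bunsi (adjusted p = 0.0460) and MIDAS against G12873 (adjusted p = 0.0282). The adjusted p for the step of J to R8 was 0.0783 with limma-voom and 0.0733 with transcripts. That for the step of V to R9 was 0.170 with limma-voom, 0.0581 with no low-count filter, 0.0935 with transcripts, 0.0614 with the replicate block and 0.345 without the 8 libraries. That for the step of P to R9 was 0.00429 without the 8 libraries. The cause of these shifts was not tested. Leaving out 1 library gave 7 to 10 stage calls for P, 5 to 8 for V and 7 to 9 for J, and 2 to 10, 9 to 12 and 1 to 2 accession calls. The adjusted p of the step to R8 ranged from 0.658 to 0.970 for P, 0.0658 to 0.262 for V and 0.00460 to 0.0533 for J. For the step to R9 it ranged from 0.0519 to 0.582, 0.00830 to 0.131 and 0.346 to 0.730. The step of V to R9 stayed past the threshold in 10 of 36 such fits. Precision of J is limited by its counts, 497 in all over 36 libraries, 15 of them at 0.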

Other observations

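The genes with the nearest identifiers were read as local context: 2 before and 2 after each gene in the numbering of its chromosome, 12 in all, of which 8 had enough counts to be tested. Next to V, Phvul.006G018600 was abundant, with group means from 133 to 766 CPM, and was called higher in 7 of 12 stage comparisons, against 1 for V. Next to P, Phvul.007G171600 was called lower in 2 stage comparisons, with its highest group mean, 3.57 CPM, in MIDAS R7. The other 6 tested neighbours had no stage call, where a tested gene had 1.47 lower and 1.30 higher calls on average. Over the 18 accession comparisons, Phvul.007G171600 had 9 calls, Phvul.007G171466 had 6 and Phvul.007G171100 had 4 near P, which had 5. Phvul.006G018600 had 3, Phvul.010G130800 had 1 and the other 3 tested neighbours had 0 by edgeR, where the average gene had 2.89. Beside J, Phvul.010G130500 and Phvul.010G130400 had 1 and 9 counts in all 36 libraries, and Phvul.010G130700 and Phvul.010G130800 had group means between 15.7 and 64.3 CPM.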
